A study of Homo sapiens with 4 samples.

Results

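The genes described here are 5 ligands of immune checkpoint receptors, CD274, PDCD1LG2, CD276, VTCN1 and PVR, together with CD47. They were named by symbol, with earlier results of these data known, and make up 6 of the 53777 Ensembl genes in the deposited table. RNA was sequenced from NUGC3, an established human stomach cancer cell line, in 4 libraries. Wild-type NUGC3 cells gave 2 libraries and NUGC3 cells with a knockdown of MYC gave the other 2. The parental line is common to both groups, and no drug, time point or second cell line enters the comparison. The sources used here do not state how MYC was knocked down, or whether 1 clone or a pool was used. The labels do not say whether replicates were separate cultures, so the p-values reflect how these samples vary, and that variation may be technical.

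Checkpoint ligands are surface proteins that engage inhibitory receptors on lymphocytes or macrophages and restrain them. CD274 (PD-L1) and PDCD1LG2 (PD-L2) bind PD-1 on T cells, CD276 (B7-H3) and VTCN1 (B7-H4) belong to the same B7 family of immunoglobulin-like proteins, and PVR (CD155) is a nectin-like adhesion protein that binds TIGIT, CD96 and CD226 on T and NK cells. CD47 binds SIRPA on macrophages and acts as a "do not eat me" signal. In other tumour cells MYC has been reported to bind at the CD274 and CD47 genes and to raise their expression, which makes their levels under a MYC knockdown of interest.

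Values are FPKM, a level scaled for transcript length and for the number of fragments in the library, and are given in the order wild type replicates 1 and 2, then MYC knockdown replicates 1 and 2. The columns summed to between 674328 and 739335 FPKM over all rows. Fragment numbers are not stated. If the unit is FPKM, spacing of the low values points to about 22200000 to 29000000 fragments a library. This is rough, since in all libraries but wild type replicate 1 the best number of bases taken off each transcript length, 300, was the largest tried. The 12953 genes that reached 1 FPKM in 2 or more libraries were tested with limma on log2(FPKM + 1), and a log2 change is knockdown minus wild type on that scale. Of these, 0 (0%) passed a Benjamini-Hochberg adjusted p of 0.05, 1349 (10.4%) passed 0.10, and 3354 (25.9%) had an unadjusted p under 0.05. In 33.4% of the genes the knockdown values were both above the wild-type values, and in 25.2% both below, 58.6% together; with equal column sums these shares were 44.7% and 18.1%. An unadjusted p under 0.05 was reached by 14.4% of the genes as higher and 11.5% as lower, and the counts of each list below stand beside these shares. MYC itself stood at 82.9, 82.0, 65.0 and 75.8 FPKM, a small difference (log2 change −0.23, standard error 0.10, limma adjusted p = 0.237). With equal column sums MYC stood at 79.8, 79.8, 65.7 and 80.2, so MYC knockdown replicate 2 was then not below wild type. The pair of wild-type libraries lay closer together than the knockdown pair, with a median SD on the log2 scale of 0.05 against 0.14.

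In wild-type NUGC3 cells 5 of the 6 genes were detected, and their levels ran in the order CD47, PVR, CD274, CD276 and PDCD1LG2, with VTCN1 near 0. CD47 was above 88.8% of all genes tested in wild type, PVR above 82.2%, CD274 above 73.8%, CD276 above 69.1% and PDCD1LG2 above 32.4%. No neighbours in this order had overlapping values in the wild-type libraries. In the knockdown libraries PVR and CD274 overlapped, at 30.4 and 34.4 FPKM for PVR and 38.9 and 33.0 FPKM for CD274, while the other neighbours stayed apart. The 5 levels summed to 167, 178, 170 and 171 FPKM, so the summed level differed by less than the spread of the wild-type pair while its make-up differed.

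**Figure D1:**
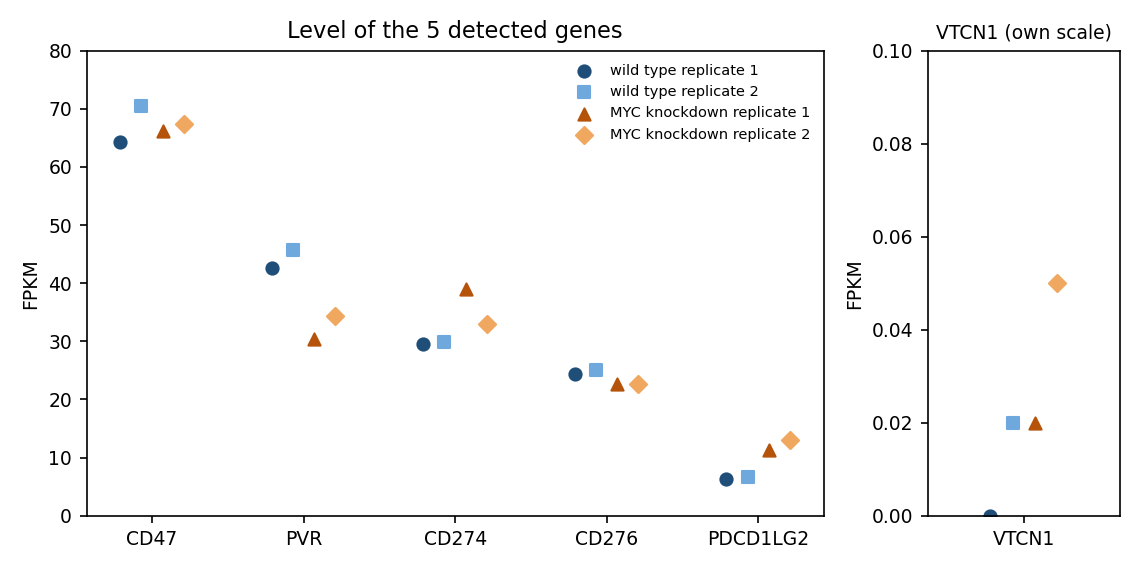
FPKM (linear axes starting at 0) of each gene in each of the 4 libraries, with VTCN1 on a scale of its own; each symbol is 1 library. PDCD1LG2 and CD274 lay higher in both knockdown libraries, PVR and CD276 lay lower, and the CD47 values of the groups overlapped.

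PDCD1LG2, the second ligand of PD-1, had the largest log2 change of the 5 genes tested. It stood at 6.29, 6.61, 11.4 and 13.1 FPKM. Both knockdown libraries were well above both wild-type libraries, and the distance between the groups was larger than the distance within either. The means were 6.45 ± 0.226 FPKM in wild type and 12.2 ± 1.24 FPKM in the knockdown (SD, n = 2 per group), 1.90 times as high. The log2 change was 0.83 (standard error 0.12, 95% interval 0.51 to 1.14, not adjusted for the number of genes). It did not pass the threshold (limma adjusted p = 0.0572, unadjusted p = 0.00133). Values just above 0.05 were not particular to it, with ICOSLG, TNFSF9 and ICAM1 each at a limma adjusted p of 0.0566. Of the genes tested, 4.64% had a larger absolute change. When only protein-coding genes, or only genes with a mean of at least 5 FPKM, were tested, the same change passed (limma adjusted p = 0.0469 and 0.0488). Without MYC knockdown replicate 1 or 2 it was 0.92 or 0.73, and without wild type replicate 1 or 2 it was 0.79 or 0.86. Such fits leave 1 library in a group, so passing is not read from them. With no filter on low values the adjusted p was 0.153. In bulk RNA a higher level per cell and a larger share of cells with the gene on cannot be told apart, here and for each gene below.

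CD274, the main ligand of PD-1 on tumour cells, lay slightly higher in the knockdown. It stood at 29.6, 29.9, 38.9 and 33.0 FPKM. The wild-type values were nearly equal, both knockdown values were above them, and MYC knockdown replicate 1 was the higher of that pair. The means were 29.8 ± 0.212 and 35.97 ± 4.17 FPKM (SD, n = 2 per group), 1.21 times as high. The log2 change was 0.26 (standard error 0.11, 95% interval −0.03 to 0.55) and did not pass (limma adjusted p = 0.219). An absolute change at least this large was common, since 41.0% of the genes tested exceeded it. The log2 change was 0.38 without MYC knockdown replicate 2 and 0.15 without replicate 1, in fits whose spread rests on the wild-type libraries. A change below −0.03 on the log2 scale was outside the interval.

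**Figure D2:**
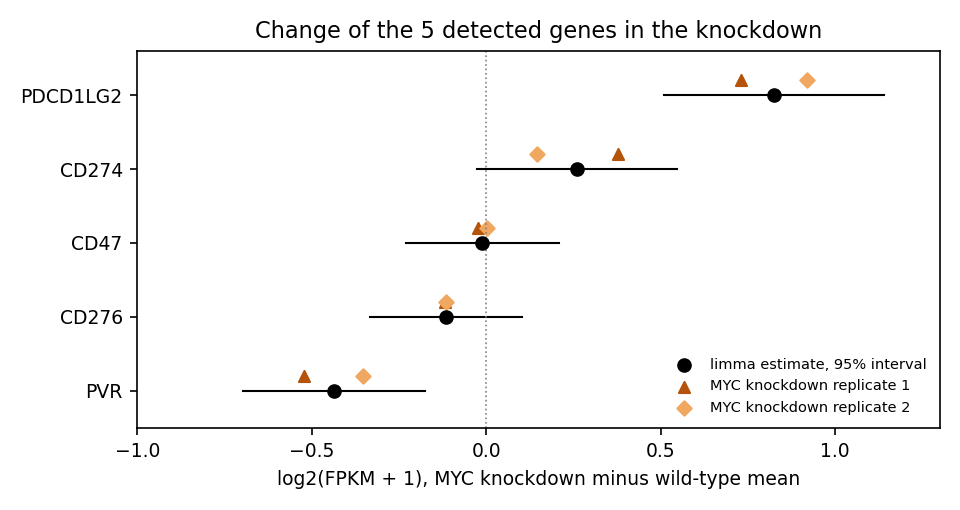
Difference from the wild-type mean on the log2(FPKM + 1) scale for the 5 detected genes: black points and lines are the limma estimate and its unadjusted 95% interval, triangles and diamonds the single knockdown libraries. The intervals of PDCD1LG2 and PVR lie on opposite sides of 0, and those of CD274, CD47 and CD276 include 0.

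The promoter of CD274 is shown because the level of this gene differed between the knockdown libraries in the same direction as genes of the interferon response, described further on. A part of interferon, or of the motifs marked here, in that difference was not tested. The bases are from RefSeq (GRCh38.p14, plus strand, chr9:5450292-5450502) and end just before the first start of the gene annotated in GENCODE release 29. Capitals mark a pair of overlapping matches on the minus strand to the IRF motif, GAAA repeated after any pair of bases, and 1 match to TTCNNNGAA, the GAS motif of interferon gamma signalling.
CD274: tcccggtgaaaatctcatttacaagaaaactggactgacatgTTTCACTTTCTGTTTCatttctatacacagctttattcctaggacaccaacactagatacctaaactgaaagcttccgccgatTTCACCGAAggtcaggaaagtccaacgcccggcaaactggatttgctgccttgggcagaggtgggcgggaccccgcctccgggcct

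RefSeq windows were found for 5 of the 6 genes, and the 250 bases before each start were searched on both strands. PDCD1LG2 had no window, so its promoter was not searched. The IRF motif was in 3.02% of all 35116 windows and TTCNNNGAA in 6.57%, and among the 5 genes searched only CD274 held either. The E-box CACGTG, the sequence MYC and its partner MAX are known to prefer, was in 6.34% of all windows and in those of 0 of the 5 genes. TGACTCA (AP-1) was in 4.20% of windows and in 0 of the 5, and the NF-kB consensus in 9.96% and in 1 of the 5, CD276. A match is a description of the letters, and its absence says only that they are not in this window.

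CD276, a B7 family protein found on many epithelial tumours, was a little lower in the knockdown. It stood at 24.3, 25.1, 22.7 and 22.7 FPKM. The knockdown values were almost identical and just below the wild-type values. The log2 change was −0.12 (standard error 0.08, 95% interval −0.33 to 0.10, limma adjusted p = 0.426), and 69.9% of the genes tested had a larger absolute change. With equal column sums, the CD276 values of the groups overlapped and the change was −0.02.

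VTCN1, a B7 family inhibitor of T cells, was at or near 0 in all 4 libraries. It was listed at 0, 0.02, 0.02 and 0.05 FPKM. From the same rough spacing of low values, 1 fragment over its longest annotated transcript, 2719 bases, is worth about 0.014 to 0.019 FPKM. On that estimate these values correspond to no more than a few fragments. The gene did not pass the filter and was not tested, and no fold is given.

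PVR, the ligand that TIGIT and CD226 compete for, was lower in the knockdown. It stood at 42.6, 45.6, 30.4 and 34.4 FPKM. Both knockdown values were well below both wild-type values. The means were 44.1 ± 2.12 and 32.4 ± 2.77 FPKM (SD, n = 2 per group), 0.734 times as high. The log2 change was −0.44 (standard error 0.10, 95% interval −0.70 to −0.17), which did not pass 0.05 but passed 0.10 (limma adjusted p = 0.0934), and 20.4% of the genes tested had a larger absolute change. It also missed 0.10 with equal column sums (limma adjusted p = 0.1335), with quantile normalization (0.1053), with no filter (0.182) and with a replicate block (0.121). Without MYC knockdown replicate 1 or 2 the log2 change was −0.35 or −0.52, and without wild type replicate 1 or 2 it was −0.48 or −0.39. Passing is not read from these fits either. CEACAM19, which overlaps PVR on the same strand in GENCODE release 29, stood at 3.30, 3.41, 1.57 and 2.27 FPKM, so it was also lower in both knockdown libraries, and how reads in the overlap were divided is not given.

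CD47, the most abundant of the 6 genes, did not differ between the groups beyond their spread. It stood at 64.3, 70.4, 66.2 and 67.4 FPKM. Both knockdown values fell between the wild-type values. The means were 67.4 ± 4.31 FPKM in wild type and 66.8 ± 0.905 FPKM in the knockdown (SD, n = 2 per group). The log2 change was −0.01 with a 95% interval of −0.23 to 0.21 (limma adjusted p = 0.949), so differences inside that interval remain possible. Its sign turned with equal column sums (0.08), without wild type replicate 2 (0.05) and without MYC knockdown replicate 1 (0.0026).

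The groups did not overlap for 4 of the 5 genes tested, of which CD274 and PDCD1LG2 were higher and CD276 and PVR lower in the knockdown, against 58.6% of all genes tested in both directions. Of the 5, 0 passed an adjusted p of 0.05 in limma and 2 passed 0.10, PDCD1LG2 among the higher genes (5.5% of all genes tested) and PVR among the lower (4.91%). These 2 also had an unadjusted p under 0.05. The median log2 change of the 5 was −0.01, beside 0.04 over all genes tested.

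Ratios within a library do not depend on how libraries were scaled. The ratio of PVR to CD274 was 1.44 and 1.53 in wild type and 0.782 and 1.04 in the knockdown libraries. The ratio of CD274 to PDCD1LG2 was 4.71 and 4.52 in wild type and 3.43 and 2.52 in the knockdown, so the level of PDCD1LG2 moved nearer to that of CD274. Neither set of ratios overlapped between the groups. PDCD1LG2 made up 3.76% and 3.72% of the summed FPKM of the 5 genes in wild type and 6.70% and 7.68% in the knockdown, PVR 25.5% and 25.7% against 18.0% and 20.1%, and CD47 38.5% and 39.6% against 39.0% and 39.5%. With 2 libraries against 2, a two-sided exact permutation test cannot give a p under 0.333, and that was its value for each of the 5 ratios computed.

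The B7 family kin of CD274 held genes that were higher and genes that were lower in the knockdown. Of 12 listed genes 7 were tested, 2 lay above both wild-type values, 4 lay below and 1 overlapped, with a median log2 change of −0.23 (−0.12 with no filter, −0.15 with equal column sums). Over all genes tested 33.4% lay above and 25.2% below. Limma passed 0 at an adjusted p of 0.05, and 1 higher and 2 lower had an unadjusted p under 0.05. ICOSLG, the ligand of the costimulatory receptor ICOS, stood at 6.77, 7.06, 3.08 and 3.15 FPKM, a log2 change of −0.94 (limma adjusted p = 0.0566). VSIR, the checkpoint protein VISTA, stood at 7.18, 7.86, 17.4 and 11.8 FPKM, a log2 change of 0.85 (limma adjusted p = 0.0989). The size of the ICOSLG difference was thus like that of PDCD1LG2 but in the other direction. NCR3LG1 (B7-H6), which activates NK cells through NKp30, stood at 0.58, 0.71, 0.17 and 0.19 FPKM and was too low to be tested. CD86 was listed at 0 in all libraries, and CD80 and HHLA2 at no more than 0.04 FPKM. The butyrophilins, relatives of the B7 proteins, were led by BTN2A1 at 16.4, 15.3, 21.8 and 18.2 FPKM and BTN3A2 at 14.5, 12.3, 11.3 and 7.75 FPKM. Their single values are uncertain, since close copies may share reads.

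Among nectins and nectin-like genes, the family of PVR, most tested genes overlapped between the groups. Of 8 listed genes 6 were tested, and 2 lay above both wild-type values, 0 below and 4 overlapped, against 33.4% above and 25.2% below over all genes. The median log2 change was 0.15, and 0.25 or 0.24 without MYC knockdown replicate 1 or 2 (0 with a limma adjusted p under 0.05, 1 with an unadjusted p under 0.05). NECTIN3, an adhesion partner of PVR, stood at 8.30, 9.69, 13.0 and 21.6 FPKM, a log2 change of 0.83 (limma adjusted p = 0.139). NECTIN2, which shares TIGIT and CD226 as receptors with PVR, stood at 35.5, 34.4, 43.8 and 31.5 FPKM. Its values overlapped, and it lay near PVR in level. NECTIN1 stood at 20.2, 22.7, 17.6 and 25.8 FPKM and overlapped as well.

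A list of other ligands of inhibitory receptors also held the enzymes IDO1, NT5E and ENTPD1, so its counts are not of ligands alone. Of its 9 tested genes, 6 lay above both wild-type values, NT5E among them, and 1 below, ENTPD1. Over all genes these shares were 33.4% and 25.2%, or 44.7% and 18.1% with equal column sums. The median log2 change was 0.44. Against the wild-type mean the median was 0.26 in MYC knockdown replicate 1 and 0.17 in replicate 2. At an adjusted p of 0.05 limma passed 0, and 1 of the 9 had an unadjusted p under 0.05, no larger a share than over all genes. That gene was TNFRSF14 (HVEM), the ligand of BTLA, at 5.83, 5.54, 10.4 and 9.22 FPKM (log2 change 0.69, limma adjusted p = 0.0650). B2M, the light chain of MHC class I, stood at 786, 777, 1324 and 878 FPKM. SDC4, a syndecan, stood at 161, 163, 179 and 312 FPKM. B2M was highest in MYC knockdown replicate 1 and SDC4 in replicate 2, so the list did not follow 1 library.

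Among costimulatory TNF ligands and ligands that activate NK cells, 2 of 11 tested genes lay above both wild-type values and 5 below, beside 33.4% and 25.2% of all genes. The median log2 change was −0.11, and it was −0.19 without MYC knockdown replicate 1, −0.036 without replicate 2 and −0.022 with equal column sums. None (0) passed an adjusted p of 0.05 in limma, and 1 higher and 2 lower had an unadjusted p under 0.05. TNFSF9, the 4-1BB ligand, stood at 17.2, 16.8, 32.1 and 28.2 FPKM (log2 change 0.79, limma adjusted p = 0.0566). ICAM1, the adhesion ligand of the lymphocyte integrin LFA-1, stood at 45.7, 47.3, 29.97 and 26.9 FPKM (log2 change −0.69, limma adjusted p = 0.0566). CD70, the ligand of CD27, stood at 39.6, 38.4, 38.5 and 34.9 FPKM and overlapped.

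**Figure D3:**
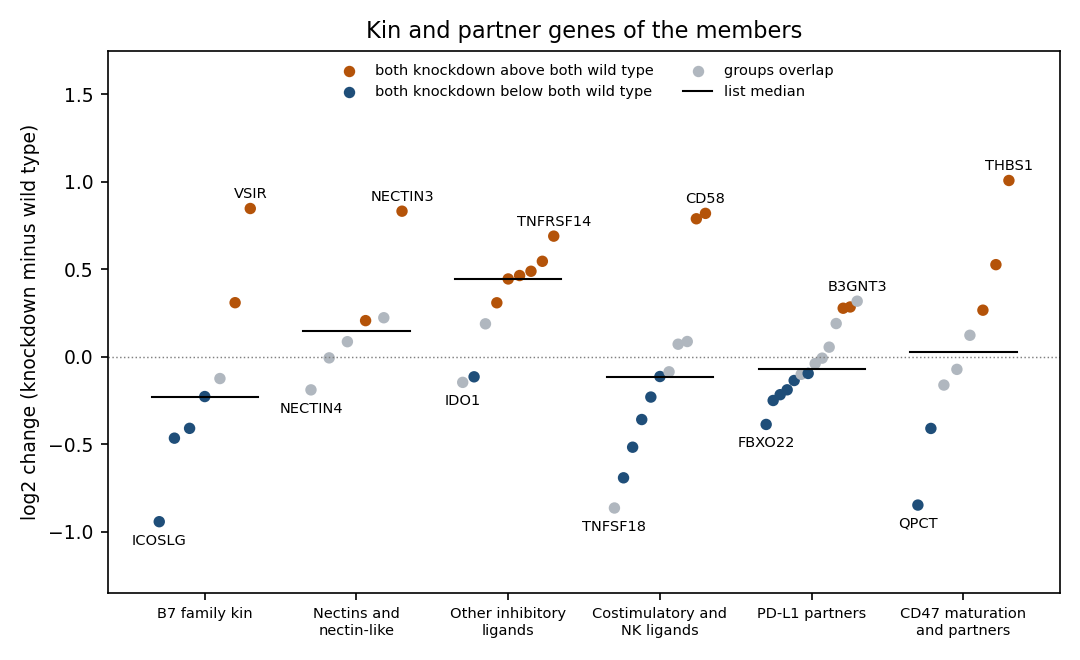
Log2 change (knockdown minus wild type, limma) of each tested gene in 6 lists, coloured by whether the 2 knockdown values lay above, below or among the wild-type values; the black line is the list median and the lowest and highest gene are named. Each list holds genes on both sides of 0, with medians from −0.23 to 0.44.

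Genes known to act on the PD-L1 protein after it is made were all expressed, and their differences were small. Of 14 genes, all tested, 2 lay above both wild-type values and 6 below, beside 33.4% and 25.2% of all genes (median log2 change −0.07; 0.03 with equal column sums, −0.036 without MYC knockdown replicate 1 and −0.029 without wild type replicate 2). Limma passed 0 at an adjusted p of 0.05, and 2 higher and 1 lower had an unadjusted p under 0.05. CMTM6, which keeps PD-L1 from being degraded, stood at 43.2, 47.1, 52.1 and 58.5 FPKM (log2 change 0.28, limma adjusted p = 0.172). HIP1R, which routes PD-L1 to the lysosome, stood at 19.2, 19.1, 23.2 and 23.6 FPKM (log2 change 0.28, limma adjusted p = 0.135). The stabilising CMTM6 and the destabilising HIP1R were thus both higher in both knockdown libraries, by about the same log2 difference. FBXO22, a ubiquitin ligase adaptor, stood at 29.9, 29.7, 23.5 and 21.6 FPKM (log2 change −0.39, limma adjusted p = 0.0934). SPOP, the adaptor that brings PD-L1 to the ligase CUL3, stood at 15.1, 14.7, 12.5 and 12.9 FPKM.

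Several partners of CD47 had larger absolute log2 changes than CD47, as did 96.9% of all genes tested, and none of these partners passed the threshold. Of 10 listed genes 8 were tested, 3 lay above both wild-type values and 2 below, shares near those of all genes, with a median log2 change of 0.03 (−0.02 with scaling by the median of ratios, 0.12 with equal column sums, and −0.0075 to 0.061 with each library left out). At an adjusted p of 0.05 limma passed 0, and 2 in each direction had an unadjusted p under 0.05. THBS1 (thrombospondin), a secreted ligand of CD47, stood at 86.6, 82.6, 125 and 235 FPKM (log2 change 1.01, limma adjusted p = 0.139). CALR (calreticulin), which at the cell surface promotes engulfment and is opposed by CD47, stood at 716, 690, 542 and 516 FPKM (log2 change −0.41, limma adjusted p = 0.0665). QPCTL, the enzyme that modifies CD47 so that SIRPA can bind, stood at 6.91, 7.57, 7.18 and 5.62 FPKM and overlapped. Its relative QPCT stood at 2.96, 2.61, 1.45 and 0.80 FPKM (log2 change −0.85, limma adjusted p = 0.108).

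Of 12 listed receptor genes, 10 stayed under 1 FPKM in every library. Not all of them encode receptors of these ligands. CTLA4, CD28, ICOS and TMIGD2 are receptors of other B7 proteins, and SIRPB1 is a relative of SIRPA. PDCD1, CTLA4, ICOS and TMIGD2 were listed at 0 in all 4 libraries, TIGIT at no more than 0.02 FPKM, and SIRPA at 0.31, 0.34, 0.50 and 0.62 FPKM. RGMB, known as a partner of PD-L2 on other cells, was the highest of the receptor genes at 10.3, 10.2, 11.5 and 14.4 FPKM, above PDCD1LG2 in wild type, and SIRPB1 stood at 3, 3, 0.99 and 2.86 FPKM. All 12 leukocyte markers stayed under 1 FPKM, with PTPRC, CD4, MS4A1 and NKG7 at 0 in every library, and their summed level was 1.51, 1.47, 1.27 and 0.89 FPKM. Of 12 epithelial and gastric markers 9 lay above the median level of all genes tested in wild type, with KRT8 between 2031 and 2488 FPKM and EPCAM between 181 and 210 FPKM. The other 3 were low, MUC1 at 1.7, 0.95, 4.71 and 4.42 FPKM, GATA4 at 4.62 to 5.85 FPKM and GATA6 at 6.97 to 9.49 FPKM. Of 9 fibroblast and endothelial markers matched, 4 were at 0 in all libraries, and COL1A1 reached 8.12 FPKM.

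CD274 is a known target of interferon gamma signalling through JAK kinases and IRF1, and this pathway differed between the knockdown libraries. Of 14 genes, all tested, 9 lay above both wild-type values and 2 below, beside 33.4% and 25.2% of all genes (median log2 change 0.24). Limma gave 0 an adjusted p under 0.05, and 4 higher and 1 lower an unadjusted p under 0.05, beside 14.4% and 11.5% of all genes. IRF9, a factor of type I interferon signalling, stood at 8.39, 10.1, 77.8 and 14.6 FPKM. MYC knockdown replicate 1 stood far above replicate 2 for this gene. IRF1, the factor closest to CD274 in this pathway, stood at 35.3, 34.9, 48.3 and 40.2 FPKM. Its differences from the wild-type mean in the knockdown libraries were 0.45 and 0.19 on the log2 scale, beside 0.38 and 0.15 for CD274. Profiles near that of CD274 were common, with 279 of 9585 candidate genes within a distance of 0.1, as described below. A part of IRF1 in the CD274 difference was not tested. JAK2 stood at 6.75, 6, 6.92 and 8.06 FPKM. SOCS3, an inhibitor of JAK signalling, stood at 16.5, 16.9, 24.5 and 22.2 FPKM, and STAT3 at 53.6, 55.4, 42.3 and 44.8 FPKM.

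Interferon-stimulated genes lay at a median of 2.31 above the wild-type mean in MYC knockdown replicate 1 and of 0.12 above it in replicate 2, over 27 tested genes. Of these 16 lay above both wild-type values and 0 below, beside 33.4% and 25.2% of all genes. With equal column sums 18 lay above and 0 below, beside 44.7% and 18.1%. None (0) passed an adjusted p of 0.05 in limma. An unadjusted p under 0.05 was reached by 2 as higher and 0 as lower, beside 14.4% and 11.5% of all genes, so as higher a smaller share than over all genes. MX2, IFI27 and TRIM22 reached 1 FPKM in the knockdown libraries alone, so they could enter only as higher. Without them 13 of 24 lay above and 0 below, beside 32.8% and 24.8% of all genes filtered in the same way. Of the 24, 1 had an unadjusted p under 0.05, and the medians were 1.94 in replicate 1 and 0.10 in replicate 2. CD274 was 0.15 above the wild-type mean in replicate 2, near the median of 0.12 of the 27 genes there. In replicate 1 it was 0.38 above, below their median of 2.31. PDCD1LG2 went the other way between the libraries, at 0.73 in replicate 1 and 0.92 in replicate 2, and PVR was lower in both. The part of the interferon-stimulated genes in the CD274 difference was not tested.

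**Figure D4:**
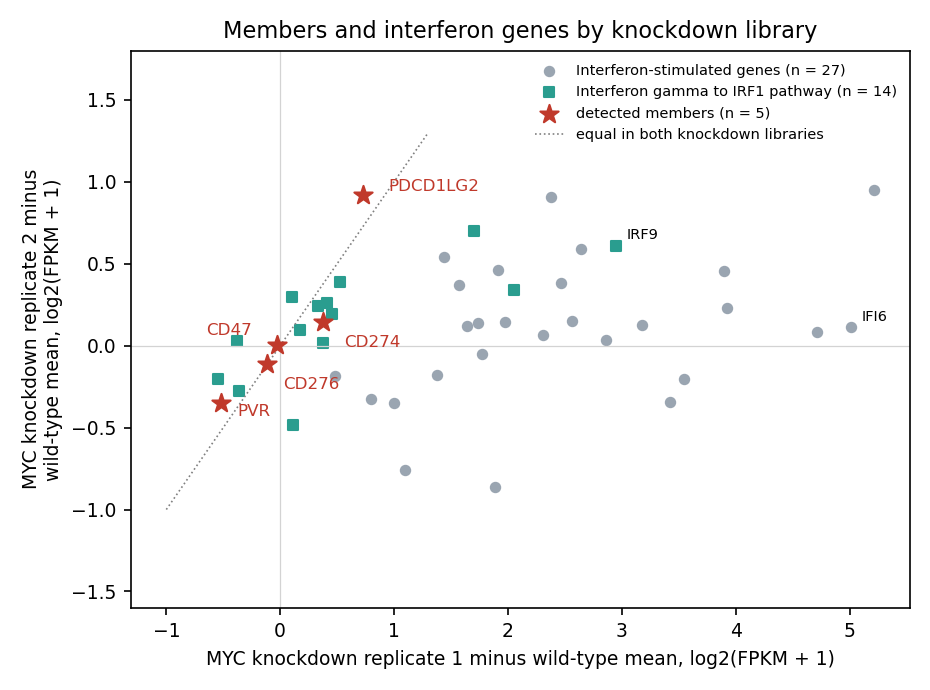
Difference of each knockdown library from the wild-type mean on the log2(FPKM + 1) scale, replicate 1 on the horizontal and replicate 2 on the vertical axis; stars are the 5 detected genes, squares the interferon gamma pathway, circles interferon-stimulated genes, and the dotted line marks equal differences. The interferon-stimulated genes spread along the horizontal axis up to above 5, while the 5 genes stay near the dotted line.

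CD274 and PDCD1LG2 are neighbours on chromosome 9p24, and the genes around them were compared in the same way. In GENCODE release 29 (GRCh38), CD274 (ENSG00000120217) spans chr9:5450503-5470566 and PDCD1LG2 (ENSG00000197646) spans chr9:5510570-5571254, both on the plus strand, with their starts 60.1 kb apart. Of 19 listed neighbours, whose starts lie at −3470 to 1270 kb from that of CD274, 14 were tested, 9 of them above both wild-type values and 2 below, beside 33.4% and 25.2% of all genes (44.7% and 18.1% with equal column sums). The median log2 change was 0.21 beside 0.04 over all genes. Limma passed 0 at an adjusted p of 0.05, and 3 higher and 2 lower had an unadjusted p under 0.05, beside 14.4% and 11.5% of all genes. SLC1A1, at 0.84, 0.91, 1.51 and 2.05 FPKM, reached 1 FPKM in the knockdown libraries alone, and without it 8 of 13 lay above, with a median of 0.20 and 2 higher at an unadjusted p under 0.05. PLGRKT, the nearest listed gene before CD274, stood at 27.5, 29.7, 32.5 and 32.8 FPKM, a log2 change of 0.19. RIC1, the nearest listed gene after PDCD1LG2, stood at 11.8, 12.8, 9.28 and 10.2 FPKM, a log2 change of −0.31. Without SLC1A1 the neighbours ranged from −0.38 (RCL1) to 0.38 (PLPP6), a range that held CD274 at 0.26 and not PDCD1LG2 at 0.83. RIC1 and ERMP1 overlap each other in the annotation, so their single values are less certain.

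**Figure D5:**
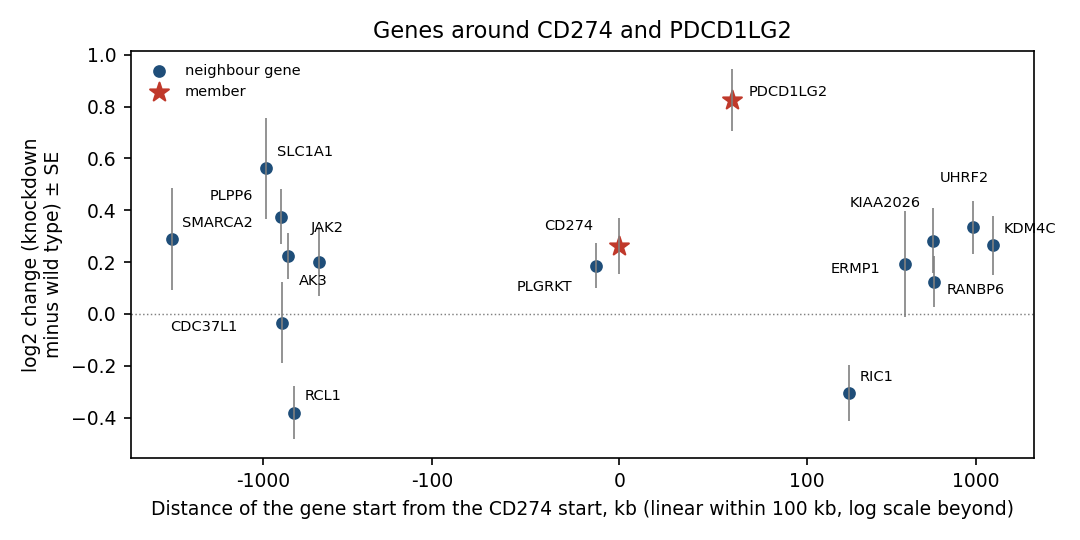
Log2 change (knockdown minus wild type, with its limma standard error) of tested genes on chromosome 9 against the distance of their start from the CD274 start in kb, on an axis that is linear within 100 kb and logarithmic beyond; stars are CD274 and PDCD1LG2. PDCD1LG2 at 0.83 is the highest point, and RCL1 and RIC1 are the lowest.

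The other members lie apart from each other: VTCN1 (ENSG00000134258) at chr1:117143587-117210960 and CD47 (ENSG00000196776) at chr3:108043094-108091862, both on the minus strand, and CD276 (ENSG00000103855) at chr15:73683966-73714518 and PVR (ENSG00000073008) at chr19:44643798-44663583, both on the plus strand.

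The genes whose profile over the 4 libraries was nearest to that of each gene were found among 9585 candidates with a mean of at least 5 FPKM, by the distance between log2(FPKM + 1) profiles centred on their own means. For CD274 these were TTC19, PMVK and UBE2Z, at distances of 0.0085, 0.014 and 0.021. For PDCD1LG2 they were TOLLIP, EDARADD and IGFBP6 (0.051 to 0.053), and for PVR they were RNASEH2C, NSMF and NDUFAF3 (0.027 to 0.036). For CD276 they were ZNF335, DDX46 and E2F4 (0.015 to 0.017), and for CD47 they were ROCK1, SMC5 and ARHGEF16 (0.0072 to 0.018). Many genes had such profiles, 279 within 0.1 of CD274, 492 of CD276, 319 of CD47 and 56 of PVR, but 13 of PDCD1LG2. Over 4 libraries such likeness is a description only.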

How the data were processed

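RNA was measured in 4 NUGC3 libraries, grouped by their titles. The submitters' processing notes name STAR and RSEM; their settings, the build and the annotation are not stated in these sources. The deposited values are taken as FPKM per gene, which the authors rounded to 2 decimals. No label or header names the unit, and this reading rests on the values, which do not sum to 1 fixed total. FPKM keeps no depth, and no counts were recovered, so limma 3.58.1 in R 4.3.3 (lmFit, eBayes with a mean trend) was run on log2(FPKM + 1) of Ensembl rows, adjusted by Benjamini-Hochberg over all genes tested. Coordinates come from GENCODE release 29 by Ensembl ID.

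The 6 genes and the 14 lists were chosen with earlier results of these data known. Of 199 listed symbols 2 were not matched. Named genes were the 6, MYC, and in each list those with the smallest p or highest level, or any member of the kin, partner, pathway and neighbour lists. CEACAM19 and the receptors and markers at or near 0 were picked for mention once their values were known. The script was checked on simulated data. Alternatives were filters, pseudocount, scalings, a replicate block, a threshold of 0.10 and each library left out, and, chosen after seeing the data, lists without genes that reached 1 FPKM in 1 group alone. A listed gene is not reported here.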

Additional observations from a re-analysis of the deposited data

How the results depend on the processing

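The direction of the CD274, PDCD1LG2, CD276, PVR and MYC log2 changes was the same under each alternative run, and that of CD47 was not: it was 0.083 with equal column sums and lay between −0.075 and 0.053 with each library left out (0.0026 without MYC knockdown replicate 1). With each library left out, the log2 change ran from 0.15 to 0.38 for CD274, 0.73 to 0.92 for PDCD1LG2, −0.52 to −0.35 for PVR and −0.34 to −0.12 for MYC. PDCD1LG2, at 0.83, passed 0.05 when only protein-coding genes or only genes with a mean of at least 5 FPKM were tested, where fewer genes enter the adjustment. Limma called 0 genes at 0.05, 310 with a mean of at least 5 FPKM, 385 among protein-coding genes, 308 with scaling by the median of ratios, 1349 at a threshold of 0.10, and 0 to 3413 with a library left out. Of the genes on the lists it called 0, and 5, 6, 4 and 0 to 65 under the same alternatives without the threshold. The high counts with a library left out arise without a knockdown library, where the lone library is assumed to vary like the close wild-type pair. With equal column sums, 44.7% of genes lay above and 18.1% below both wild-type values, against 33.4% and 25.2%. Same-numbered libraries showed no shared deviation (correlation across genes −0.006). The wild-type pair hardly differed, so this cannot show whether same-numbered libraries were prepared in pairs. With a replicate block limma called 0 genes, and the PDCD1LG2 and PVR adjusted p were 0.0844 and 0.121. Differences within the intervals given for CD47 and CD276 remain possible, and these intervals are not limits of detection with 2 libraries a group.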

Other observations

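Transcription factors reported in the literature to act on CD274 or CD47 were mixed: of 14 tested, 1 lay above both wild-type values and 6 below, beside 33.4% and 25.2% of all genes. The median log2 change was −0.15 beside 0.04 over all genes tested, but −0.061 under equal column sums and −0.067 once MYC knockdown replicate 2 was left out; 0 passed a limma adjusted p of 0.05 (1 higher and 3 lower at an unadjusted p under 0.05). SNAI1, at 1.28, 1.29, 0.23 and 0.16 FPKM, reached 1 FPKM in wild type alone, and without it 5 of 13 lay below, with a median of −0.14 and 2 lower at an unadjusted p under 0.05. The AP-1 subunits JUN and FOS went in opposite directions, with JUN at 55.1, 54.8, 31.9 and 21.7 FPKM (log2 change −1.03, limma adjusted p = 0.0718) and FOS at 62.5, 57.5, 147 and 112 FPKM (log2 change 1.08, limma adjusted p = 0.0569). FOSL1, a further subunit, was the most abundant gene of this list and overlapped, at 361, 355, 280 and 393 FPKM. HIF1A, the hypoxia factor, stood at 215, 213, 174 and 191 FPKM, a log2 change of −0.23, the same as that of MYC.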
